A study of Mus musculus with 4 samples.

Results

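Chemokines are small secreted proteins that set the direction in which leukocytes move. The chemokine ligands described here were 8 genes, Ccl3, Ccl4, Ccl5, Ccl6, Cxcl2, Cxcl10, Cxcl16 and Xcl1, taken by name from the 16152 gene names that all 4 libraries share, where 18 other chemokine ligands are also listed. The study profiled single blood cells of C57BL/6J wild-type mice, 6 to 8 weeks old, before and during acute pancreatitis (AP), an inflammation of the pancreas that starts in its own digestive cells. The control library was taken at 0 h, and the AP libraries at 12 h and 24 h (initial phase) and at 96 h (recovery phase). Mononuclear cells were separated on a Ficoll density gradient and sequenced with a droplet kit that reads the 5′ end of transcripts. According to the series text, AP was induced with 7 intraperitoneal injections of cerulein, a peptide that overstimulates the exocrine pancreas, at a stated 60 mg/kg. The same text gives the last blood time as 168 h where the sample labels give 96 h, and the label is used here. The number of animals behind each library is not given, and each group is 1 library. No difference between times therefore had a replicate spread or a test, and every interval below is a 95% interval that covers counting error only.

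Chemokines bind receptors with 7 membrane-spanning helices, and each receptor takes a small set of ligands. Ccl3, Ccl4 and Ccl5 are inflammatory CC chemokines that draw in monocytes, T cells and natural killer (NK) cells, and Ccl3 and Ccl5 act through Ccr1 among other receptors. Cxcl2 acts on Cxcr2 and recruits neutrophils, Cxcl10 is an interferon-induced ligand of Cxcr3, Cxcl16 is a membrane-anchored ligand of Cxcr6, and Xcl1 draws Xcr1-bearing dendritic cells. In blood, cytotoxic lymphocytes are known to keep Ccl5 messenger RNA in store, while myeloid cells switch on Cxcl2 and Ccl3 through NF-kB, a transcription factor of inflammatory signalling.

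For 3 ligands that monocytes carried with different time courses, the 250 bases before the gene start are shown, to set the motifs each of them holds side by side. They come from RefSeq (GRCm38.p6), where 5 of the 8 members had an entry, and are written 5′ to 3′ on the gene's strand. Capitals mark matches to 3 motifs searched on both strands: GGG and TTCC with any 3 bases between them (a form bound by NF-kB), TGANTCA (a form bound by AP-1), and GAAA followed after any 2 bases by GAAA (the core of interferon-stimulated elements).
Cxcl2, chr5:90903649-90903898, plus strand: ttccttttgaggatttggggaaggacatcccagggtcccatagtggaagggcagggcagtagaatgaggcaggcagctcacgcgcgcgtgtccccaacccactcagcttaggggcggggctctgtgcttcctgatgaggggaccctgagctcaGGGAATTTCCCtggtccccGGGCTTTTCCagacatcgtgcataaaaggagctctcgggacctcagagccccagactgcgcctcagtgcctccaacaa
Cxcl10, chr5:92348890-92349139, minus strand: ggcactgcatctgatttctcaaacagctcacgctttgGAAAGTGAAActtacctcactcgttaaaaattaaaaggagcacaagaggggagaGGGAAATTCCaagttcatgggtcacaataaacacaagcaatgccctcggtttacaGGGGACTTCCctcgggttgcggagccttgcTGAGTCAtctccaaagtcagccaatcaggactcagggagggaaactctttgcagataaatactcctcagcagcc
Ccl3, chr11:83649379-83649628, minus strand: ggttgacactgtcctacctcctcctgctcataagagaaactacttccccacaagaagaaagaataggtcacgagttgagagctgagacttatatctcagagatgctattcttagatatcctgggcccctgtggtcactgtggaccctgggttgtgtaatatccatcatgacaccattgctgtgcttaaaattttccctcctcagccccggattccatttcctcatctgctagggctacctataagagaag
Cxcl2 held 3 matches to the first motif, of which 1 pair overlaps on opposite strands between 97 and 87 bases before the start, and the third lies 78 to 69 bases before it. Cxcl10 held 2 matches to that motif, 159 to 150 and 104 to 95 bases before its start, 1 match to the AP-1 form and 1 to the interferon form. None of the 3 motifs occurs in the Ccl3 window, nor in those of Ccl6 and Xcl1. Of 32851 RefSeq promoters of the same length, 4.65% hold the first motif, 6.75% the second and 2.98% the third. A match is a description of the letters and not of binding.

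Cells were assigned to gates by the number of detected markers of each type, from lists of 8 genes. Here and below, 4 values in a row stand for the control, 12 h, 24 h and 96 h libraries in this order. The monocyte gate held 3956, 3521, 4556 and 2024 cells, the T-cell gate 2845, 1862, 2056 and 5249, the B-cell gate 2596, 2707, 2115 and 3514, and the NK gate 417, 806, 469 and 602. The neutrophil gate held 5, 73, 108 and 14 cells, so neutrophils were compared only between 12 h and 24 h. Total counts were 62481134, 60515205, 76597006 and 79516878 unique molecular identifiers (UMIs, each standing for 1 captured transcript), with median UMIs per used cell from 3625 to 4889. The control library stood apart by its mitochondrial share, with a median of 7.94% of UMIs against 6.50% to 7.00% in the AP libraries. A limit of 5% left only 584 control cells before gating, so the ratios to control given below under that limit rest on few control cells. The 12 h and 24 h libraries carry identical lists of 11663 barcodes although the 24 h matrix has 12588 columns, and the control list names 4340 barcodes for 14569 columns, so cells were taken by matrix column. Other pairs of libraries shared 0 barcodes as listed and 10 to 51 once the suffix after the hyphen was removed. Across libraries, 0 cells had identical counts. Among the 16152 gene names, 28 begin with RT1, the prefix rat histocompatibility genes have, and 0 with H2, the prefix of their mouse counterparts. The labels name mouse and the build mm10, and the genome the reads were counted on could not be settled here, so the mouse sequences above may not be those of the counted reference.

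The 8 ligands separated by cell type (plot of levels by gate and library). Levels are given as CPM, the UMIs of a gene per 1000000 UMIs of all genes, summed over the cells of a gate. Of all UMIs of a ligand in a library, monocytes held 79.9% to 90.8% for Ccl6, 80.2% to 94.7% for Cxcl2, 65.3% to 91.5% for Cxcl10 and 70.8% to 94.0% for Cxcl16. NK cells, which were 3.66% to 7.70% of used cells, held 66.3% to 78.4% of the Ccl4, 74.9% to 89.3% of the Ccl5 and 80.9% to 86.0% of the Xcl1 UMIs. Ccl3 was spread over monocytes (35.0% to 80.0%), B cells (7.2% to 26.9%) and NK cells (4.6% to 14.8%).

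**Figure D1:**
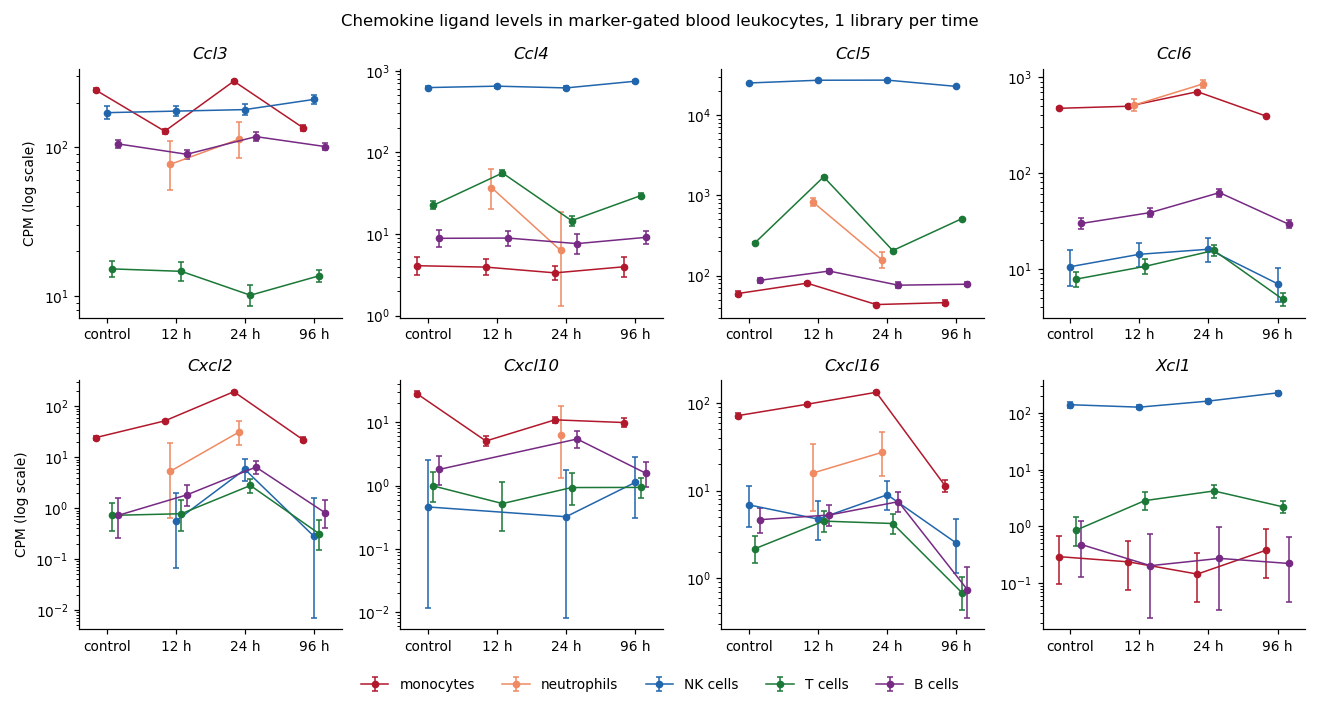
Level of each chemokine ligand (CPM, log scale) in 5 marker gates of the control, 12 h, 24 h and 96 h libraries. Points are sums over the cells of 1 library and bars are Poisson 95% intervals; gates under 50 cells and values of 0 are left out. Ccl4, Ccl5 and Xcl1 are highest in NK cells at each time, and Cxcl2, Cxcl10 and Cxcl16 are highest in monocytes at each time. For Cxcl10 at 24 h the intervals of monocytes and neutrophils overlap.

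Among these inflammatory CC chemokines, Ccl3 (macrophage inflammatory protein 1 alpha) was the one shared by myeloid and lymphoid cells. In monocytes it stood at 243, 128, 279 and 136 CPM, so that 12 h and 96 h were low and control and 24 h high. Against control the ratios were 0.528 at 12 h (0.503 to 0.554), 1.15 at 24 h (1.11 to 1.19) and 0.558 at 96 h (0.527 to 0.590). The 24 h library was 2.17 times the 12 h library (2.08 to 2.27), which does not involve the control; as a mean over cells this was 1.75, and with at most 5% mitochondrial UMIs it was 3.39. With that limit the 12 h ratio to control was 0.229 and the 24 h ratio 0.776 (0.707 to 0.851), on the other side of 1. The 96 h library was 0.486 times the 24 h library (0.462 to 0.512), and 0.603 times with that limit.

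The 2 kinds of monocyte differed in how much Ccl3 moved. In cells with more classical markers, the inflammatory blood monocytes, Ccl3 stood at 87.1, 39.7, 215 and 58.9 CPM. In cells with more nonclassical markers, which patrol the vessel wall, it stood at 286, 188, 319 and 211 CPM and was the higher of the 2 at each time. The 24 h level was thus 2.47 times control in classical cells (2.15 to 2.85) and 1.11 times control in nonclassical cells (1.07 to 1.16); this difference in ratio was not tested. Monocytes with equal numbers of classical and nonclassical markers detected were placed in neither kind. Classical cells numbered 327, 589, 963 and 522, and nonclassical cells 3302, 2410, 2944 and 1296. Classical cells also carried the deeper libraries, with a median of 7525 to 12724 UMIs against 3559 to 4763.

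NK cells held Ccl3 at 171, 175, 179 and 210.1 CPM, with overlapping intervals at control, 12 h and 24 h. B cells, which are not usually thought of as a Ccl3 source in blood, held it at 105, 89.7, 118 and 101 CPM, while T cells held 15.2, 14.6, 10.1 and 13.6 CPM. After thinning each cell to 2000 UMIs, 17.2%, 14.7%, 18.6% and 16.2% of B cells had a Ccl3 UMI, against 3.08%, 2.63%, 1.56% and 2.45% of T cells. B cells were the shallower of the pair, with median depths of 2836 to 3348 UMIs against 5037 to 6575 in T cells. In B cells the Ccl3 level was 43.4%, 69.9%, 42.3% and 74.6% of the monocyte level. The monocyte genes Lyz2 (lysozyme) and Csf1r (the receptor of colony stimulating factor 1) in the same B cells were at 1.33% to 2.90% and 0.817% to 1.63% of theirs. Both are among the monocyte markers that the gates count, so their low level in B cells is partly set by the gating. Ccl6 and Cxcl16, which the gates do not use, were at 6.28% to 8.84% and 5.43% to 6.55% of the monocyte level. The source of the Ccl3 UMIs in B cells was not tested. Ccl4, the other macrophage inflammatory protein, was near 9 CPM in B cells at control, 12 h and 96 h (8.86, 8.92 and 9.11) and 7.63 at 24 h. In RefSeq the Ccl3 gene (chr11:83647843-83649378) overlaps the longer Ccl4 gene model (chr11:83648624-83664683), and whether the counting used strand is not given in the sources used here.

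Ccl4 (macrophage inflammatory protein 1 beta) belonged to the NK cells. Its NK level was 621, 647, 615 and 743 CPM. The first 3 intervals overlap and the 96 h level lies above them, at 1.20 times control (1.12 to 1.28). After thinning each cell to 2000 UMIs, 4, 5, 4 and 20 NK cells had at least 10 Ccl4 UMIs. Those cells held 7.68%, 7.64%, 9.68% and 28.6% of the Ccl4 UMIs of the thinned NK cells. Thinned shares of Ccl4-positive NK cells were 52.5%, 56.3%, 54.0% and 52.4%, with overlapping intervals, while all monocyte shares were below 1%. Among control NK cells with a Ccl3 UMI, 67.2% also had a Ccl4 UMI (58.1% to 75.4%), against 46.4% of those without (40.6% to 52.3%). In the AP libraries, in time order, the same pairs of shares were 60.3% and 54.7%, 60.3% and 51.7%, and 57.6% and 49.7%, and their intervals overlap.

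T cells carried less Ccl4, and only part of them. The T-cell level was 22.5, 55.9, 14.6 and 29.5 CPM, highest at 12 h and lowest at 24 h. The ratios to control were 2.48 at 12 h (2.17 to 2.84), 0.648 at 24 h (0.542 to 0.773) and 1.31 at 96 h (1.16 to 1.49). In T cells with no detected NK marker they were 1.36 (0.993 to 1.85), 0.331 (0.209 to 0.510) and 0.914 (0.706 to 1.19). With at most 5% mitochondrial UMIs, which left 59 control T cells, they were 4.25, 2.07 (0.875 to 5.95) and 2.68, so that control and not 24 h was then the lowest. The top 1% of T cells by Ccl4 held 44.0%, 43.7%, 65.2% and 44.6% of its T-cell UMIs.

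Ccl5 (RANTES) was near-universal in NK cells. NK levels were 24928, 26971, 27060 and 22600.4 CPM, within 0.907 and 1.09 times control. After thinning, more than 98% of NK cells had a Ccl5 UMI in each library (99.04% in control, 99.9% at 12 h), with a median of 52, 56, 59 and 46 Ccl5 UMIs among 2000. The level in B cells was 0.281% to 0.422% of that in NK cells across the 4 libraries, and that of the NK granule gene Nkg7 was 0.211% to 0.493%. Unthinned, 24.8%, 32.8%, 22.3% and 25.3% of B cells had a Ccl5 UMI, and the UMIs per such cell were 1.14 to 1.26. The B-cell levels were 87.5, 114, 76.0 and 78.2 CPM and the monocyte levels 59.9, 80.5, 43.6 and 46.1 CPM. In monocytes Ccl5 was at 0.161% to 0.299% of the NK level and Nkg7 at 0.202% to 0.598%. The part of free RNA in these levels was not tested.

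In T cells the Ccl5 level differed most between libraries. It stood at 253, 1693, 205 and 511 CPM. The 12 h ratio to control was 6.68 (6.46 to 6.92), the 24 h ratio 0.809 (0.770 to 0.849) and the 96 h ratio 2.02 (1.95 to 2.09), and 24 h against 12 h was 0.121 (0.116 to 0.126). In T cells with a Cd8 UMI and no Cd4 UMI, the cytotoxic lineage, the levels were 382, 2812, 420 and 1006 CPM. In the smaller set with a Cd4 UMI and no Cd8 UMI (206, 184, 164 and 482 cells) they were 181, 91.1, 35.0 and 89.7 CPM. There 1 control cell held 149 of 212 UMIs and 1 cell at 96 h held 104 of 263.

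Ccl5 sat in a small part of the T gate, and that part carried NK markers (plot of Ccl5 in T cells by NK markers). Thinned T cells with at least 10 Ccl5 UMIs were 0.992%, 5.70%, 0.781% and 1.74% of the gate, and they held 73.1%, 92.5%, 71.9% and 85.1% of its Ccl5 UMIs. T cells with 2 or more of the 8 NK markers were 16.3%, 28.2%, 18.7% and 22.1% of the gate and held 70.1%, 82.3%, 77.7% and 82.9% of its Ccl5. Within them the mean was 1.99, 8.96, 1.47 and 3.12 Ccl5 UMIs per cell, so the 12 h library was higher there too. After thinning, 11.8%, 19.9%, 9.18% and 11.9% of T cells had any Ccl5 UMI, no more than the 17.8%, 21.9%, 15.2% and 16.1% of B cells. The 8 NK markers summed to 216, 308, 221 and 265 CPM over the T gate, none of them at 0, and Il2rb, Klrd1 and Klrk1 among them are also made by activated T cells. With NK-marker cells left out, a check chosen after the data were seen, the 12 h ratio was 1.62 (1.43 to 1.84), the 96 h ratio 0.751 (0.670 to 0.842), opposite in direction to the full gate, and 24 h against 12 h was 0.336. With at most 5% mitochondrial UMIs, which left 59 control T cells, the 12, 24 and 96 h ratios were 37.0, 2.60 and 11.5, and 24 h against 12 h was 0.0702 (0.0627 to 0.0784). The 96 h ratio was 1.58 with doublets kept, 1.81 after thinning and 1.86 as a mean over cells. The part of NK-marker cells in these ratios beyond these values was not tested. The neutrophil gate held Ccl5 at 828 CPM at 12 h and 158 CPM at 24 h, a ratio of 0.190 (0.146 to 0.246) and of 0.298 as a mean over cells, beside summed NK markers of 71.5 and 52.6 CPM. A single cell held 202 of the 313 UMIs at 12 h, and another 46 of 75 at 24 h.

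**Figure D2:**
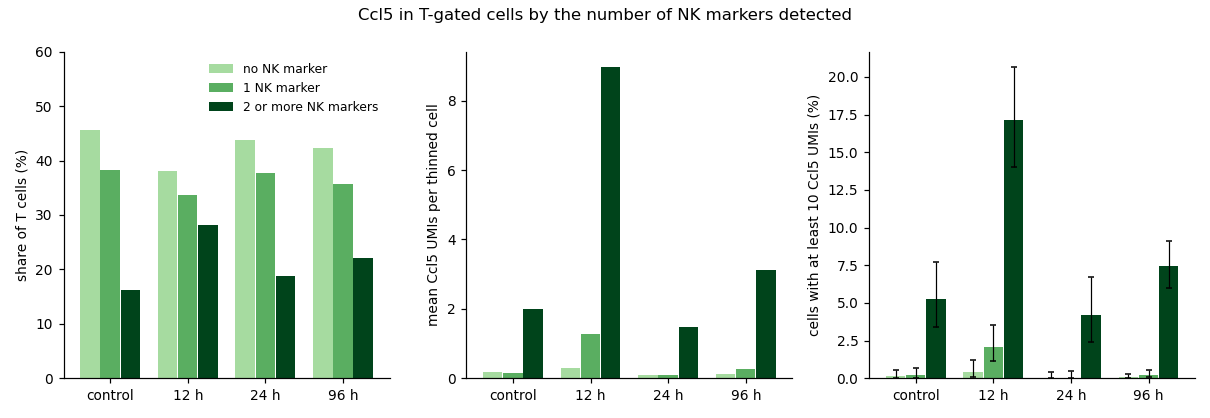
T-gated cells split by the number of NK markers detected, in the control, 12 h, 24 h and 96 h libraries: share of the gate (left, %), mean Ccl5 UMIs per cell thinned to 2000 UMIs (middle), and share of cells with at least 10 Ccl5 UMIs (right, %, with Clopper-Pearson 95% intervals). Cells with 2 or more NK markers hold the highest mean at each time, 8.96 UMIs at 12 h.

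Ccl6, a constitutive chemokine of myeloid cells in rodents that acts on Ccr1, was the most widely detected ligand of monocytes. Monocytes held it at 474, 498, 707 and 392 CPM, highest at 24 h and lowest at 96 h in the gate as a whole. The ratios to control were 1.05 (1.02 to 1.08), 1.49 (1.45 to 1.53) and 0.827 (0.798 to 0.856). Thinned shares of positive monocytes were 50.9%, 56.6%, 61.4% and 46.0%, in the same order of libraries as the levels. With at most 5% mitochondrial UMIs the 12 h ratio was 0.694 (0.639 to 0.754), on the other side of 1, the 96 h ratio 1.01, and 24 h against 12 h was 2.77, against 1.42 in the full gate.

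Within each kind of monocyte, Ccl6 was not below control at 96 h. In nonclassical monocytes it stood at 547, 753, 1096 and 605 CPM, 2.01 times control at 24 h (1.95 to 2.06) and 1.11 times at 96 h (1.07 to 1.15). In classical monocytes it stood at 155, 92.4, 180.5 and 163 CPM, 1.05 times control at 96 h with an interval that holds 1. After thinning each cell to 2000 UMIs, classical cells had means of 0.3375, 0.452, 0.391 and 0.339 Ccl6 UMIs. The 12 h library, lowest by CPM in classical cells, was thus the highest there after thinning. The mix of the 2 kinds also differed, with 522 classical and 1296 nonclassical cells at 96 h against 327 and 3302 in control. Neutrophils held Ccl6 at 511 CPM at 12 h and 852 at 24 h, a ratio of 1.67 (1.40 to 1.99), and their level at 12 h did not differ from that of monocytes beyond counting error. B cells held 29.8, 38.7, 62.5 and 29.3 CPM, 2.10 times control at 24 h (1.79 to 2.46) but 1.96 with no cell filter, 1.99 with doublets kept and 1.84 after thinning. T cells held 7.81, 10.6, 15.6 and 4.80 CPM. The B-cell level was 6.28%, 7.77%, 8.84% and 7.47% of the monocyte level, and the summed monocyte markers in B cells were 568, 711, 1114 and 408 CPM, also highest at 24 h, with 1 of 8 at 0 in each library. Their part in the B-cell Ccl6 was not tested. The neutrophil gate also carried summed monocyte markers of 11636 and 15500.5 CPM at 12 h and 24 h, so its Ccl6 cannot be told apart from that of monocytes.

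Cxcl2 (macrophage inflammatory protein 2), the neutrophil attractant, had the largest ratio of any ligand in monocytes. It stood at 24.3, 51.7, 193 and 22.1 CPM, so that 24 h was far above the others and 96 h overlapped control. The ratio to control was 7.97 at 24 h (7.22 to 8.82) and 0.913 at 96 h (0.783 to 1.06), and 24 h was 3.74 times 12 h (3.51 to 3.99). Under the limit of 5% mitochondrial UMIs the 24 h ratio to control was 4.48 (3.35 to 6.12). The 12 h ratio of 2.13 (1.90 to 2.39) rested on few cells. As a mean over cells it was 1.17 (1.05 to 1.32), after thinning 1.47 (1.18 to 1.84), and with at most 5% mitochondrial UMIs 1.55 (1.14 to 2.13).

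At 24 h both the share of monocytes with Cxcl2 and the UMIs per positive cell were above control. Thinned positive shares were 2.88%, 2.20%, 12.9% and 2.30% of monocytes. At 12 h the share was not above control, but UMIs per positive cell were 2.57, against 1.34 in the control library, 2.15 at 24 h and 1.93 at 96 h after thinning (unthinned 7.74, 1.89, 6.48 and 2.87 in the same order). The top 1% of monocytes held 79.7% of the Cxcl2 UMIs at 12 h and 29.3% at 24 h.

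At 12 h and 24 h the level of Cxcl2 was higher in classical than in nonclassical monocytes (plot of ligand levels by monocyte type). In them it stood at 18.5, 76.2, 287 and 15.5 CPM, 4.13 times control at 12 h (3.05 to 5.70) and 15.5 times at 24 h (11.6 to 21.2). In nonclassical monocytes it stood at 23.2, 15.5, 109 and 28.2 CPM, which is 0.671 times control at 12 h (0.551 to 0.814) and 4.70 times at 24 h (4.15 to 5.33). The 2 kinds thus lay on opposite sides of control at 12 h and on the same side at 24 h. Monocytes placed in neither kind were not part of this comparison, and their own Cxcl2 level was not computed. After thinning, 3 monocytes at 12 h had at least 10 Cxcl2 UMIs and held 18.7% of those of the gate. These cells were placed in neither kind, as 0 classical and 0 nonclassical cells reached 10 at 12 h. The 12 h order of levels therefore covers the 2 kinds only, and not all monocytes. At 12 h the cells outside every gate held Cxcl2 at 33.4 CPM and 17.5% of its UMIs, and those cells had 11243 CPM of summed monocyte markers and 313 CPM of neutrophil markers. Neutrophils, the cells that Cxcl2 recruits, held it at 5.29 CPM at 12 h and 31.5 CPM at 24 h, on 2 and 15 UMIs. B cells held Cxcl2 at 0.718, 1.82, 6.403 and 0.814 CPM and T cells at 0.722, 0.778, 2.79 and 0.312 CPM, highest at 24 h like the summed monocyte markers in both gates (568, 711, 1114 and 408 CPM, and 353, 479, 612 and 279 CPM). The part of those cells in these levels was not tested.

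**Figure D3:**
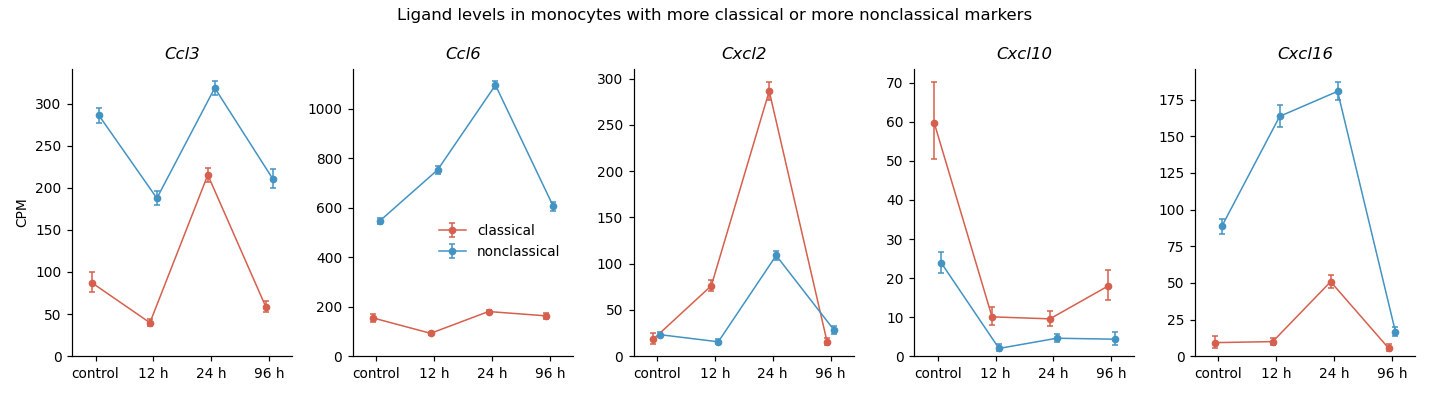
Levels (CPM) of 5 ligands in gated monocytes with more classical or more nonclassical markers, in the control, 12 h, 24 h and 96 h libraries, with Poisson 95% intervals. Monocytes with equal numbers of both markers are left out. Cxcl2 reaches its highest level in classical cells, 287 CPM at 24 h, the Cxcl10 level of classical control cells (59.8 CPM) rests largely on 1 cell, and Ccl6 and Cxcl16 are higher in nonclassical cells at each time.

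In the AP libraries, Cxcl2-positive monocytes more often had a UMI of Il1b, the gene of the inflammatory cytokine interleukin 1 beta. At 24 h, 55.4% of thinned monocytes with a Cxcl2 UMI also had an Il1b UMI (51.2% to 59.5%), against 33.4% of those without (32.0% to 34.9%). The 96 h shares were 45.7% and 20.7% and the 12 h shares 27.3% and 16.0%, both with intervals that do not overlap, while in the control library 26.4% and 22.7% overlapped. Ccl3-positive and Ccl3-negative monocytes differed beyond these intervals in Cxcl2 only at 24 h, of the 4 libraries, where 17.6% of Ccl3-positive monocytes had a Cxcl2 UMI (15.6% to 19.7%) against 10.8% of the others (9.74% to 12.0%). These are descriptions over cells of 1 library, not over replicates.

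Cxcl10, the interferon-induced Cxcr3 ligand, ran the other way in time. Monocytes held it at 28.5, 5.07, 10.95 and 9.93 CPM, with control above every AP library. The ratios to control were 0.178 (0.143 to 0.2200), 0.385 (0.336 to 0.441) and 0.349 (0.285 to 0.424). Under the limit of 5% mitochondrial UMIs the 96 h ratio was 1.02 (0.469 to 2.30), on few UMIs. Classical monocytes stood at 59.8, 10.1, 9.55 and 17.9 CPM and nonclassical ones at 23.9, 1.98, 4.59 and 4.34 CPM. In classical cells, 1 cell held 92 of 149 UMIs in the control library, 59 of 74 at 12 h, 21 of 106 at 24 h and 64 of 88 at 96 h, so the control, 12 h and 96 h levels are mostly those of a single cell each. In the whole monocyte gate 1 cell held 59 of 107 UMIs at 12 h, 125 of 380 at 24 h and 64 of 130 at 96 h. After thinning each cell to 2000 UMIs, 3 control monocytes with at least 10 Cxcl10 UMIs held 56.0% of its UMIs in that gate. Among nonclassical control monocytes, 2 such cells held 52% of the thinned UMIs.

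Few cells made up these levels. Only 1.41%, 0.286%, 0.691% and 0.798% of thinned monocytes had a Cxcl10 UMI, and the top 1% of monocytes held 90.6% of the UMIs in the control library. In the control library, 35.2% of Cxcl10-positive monocytes had a UMI of the interferon-stimulated gene Isg15 (22.7% to 49.4%), against 7.16% of the others (6.36% to 8.03%). At 96 h the shares were 56.3% of 16 positive cells and 9.66% of the rest. Outside the monocytes, the Cxcl10 level was at most 6.31 CPM in any compared gate, and it was at 0 in B and NK cells at 12 h, which allows up to 0.111% of B cells and 0.372% of NK cells with a UMI (3 cells of each gate).

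Cxcl16 occurs as a membrane-bound and a shed form. Of the monocyte ligands at 50 CPM or more at 24 h or 96 h (Ccl3, Ccl6, Cxcl2 and Cxcl16), it had the lowest ratio of 96 h to 24 h. Monocytes held it at 72.0, 97.1, 133.0 and 11.3 CPM, with 96 h far below the other 3. The ratios to control were 1.35 (1.26 to 1.45), 1.85 (1.73 to 1.97) and 0.157 (0.131 to 0.186), and 96 h against 24 h was 0.0850 (0.0717 to 0.100). With at most 5% mitochondrial UMIs the 12 h ratio was 0.730 (0.611 to 0.877), on the other side of 1. Thinned positive shares were 12.0%, 19.2%, 24.2% and 2.20% of monocytes.

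The ratio at 96 h was below 1 in all 4 compared gates and in both kinds of monocyte, though in classical monocytes its interval held 1. Nonclassical monocytes stood at 88.6, 164, 181 and 16.6 CPM and classical ones at 9.23, 9.93, 50.8 and 5.50 CPM. After thinning, classical cells had means of 0.01875, 0.0512, 0.0930 and 0.0116 Cxcl16 UMIs, so 12 h then lay further above control. The 96 h ratio to control was 0.187 in nonclassical monocytes (0.152 to 0.228), 0.596 in classical ones (0.329 to 1.09), 0.159 in B cells (0.0706 to 0.323), 0.316 in T cells (0.176 to 0.559, and 0.148 on few UMIs with at most 5% mitochondrial UMIs) and 0.367 in NK cells (0.141 to 0.894), the last on few UMIs (0.0767 after thinning). The levels outside the monocytes were low, from 2.17 to 8.98 CPM at control, 12 h and 24 h in B, T and NK cells. In B cells Cxcl16 was at 6.48%, 5.43%, 5.63% and 6.55% of the monocyte level, and in T cells at 3.01%, 4.63%, 3.17% and 6.06%. The part of free RNA in the levels outside the monocytes was not tested. Ccl6-positive monocytes had a Cxcl16 UMI more often than Ccl6-negative ones at 12 h (21.1% and 16.8%) and at 24 h (28.5% and 17.4%), while in the control library (12.8% and 11.1%) and at 96 h (2.28% and 2.13%) the intervals overlapped.

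Xcl1 (lymphotactin), the ligand of Xcr1, was an NK gene in these libraries. NK cells held it at 140.3, 127, 163 and 227 CPM, highest at 96 h. The ratio to control was 0.905 at 12 h (0.781 to 1.05), 1.16 at 24 h (1.004 to 1.34) and 1.62 at 96 h (1.42 to 1.85), and 96 h was 1.39 times 24 h (1.25 to 1.56). The thinned share of Xcl1-positive NK cells was 19.3%, 17.1%, 18.6% and 30.9%, so that the 96 h interval (27.3% to 34.8%) lies above the other 3. Xcl1 and Ccl4 UMIs were not detected together more often in NK cells: 16.5%, 15.1%, 18.7% and 29.5% of Ccl4-positive cells had an Xcl1 UMI, against 22.3%, 19.7%, 18.6% and 32.5% of Ccl4-negative cells, with overlapping intervals at each time. Monocytes and B cells held Xcl1 at 0.144 to 0.479 CPM, and T cells at 0.853, 2.85, 4.22 and 2.21 CPM.

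Few members were measured in each comparison, and the count called by size is given beside the share of all genes. A gene was measured in a comparison if it reached 50 CPM in either library and 20 UMIs over both, and called if it was at least 2-fold higher or lower with an interval that leaves out 1. In monocytes 1 of 5 measured members was called at 12 h (Cxcl2, higher) beside 4.43% of all genes measured, 1 of 5 at 24 h (Cxcl2, higher) beside 4.45%, and 1 of 4 at 96 h (Cxcl16, lower) beside 1.54%. In NK cells 0 of 4 were called at each time, beside 1.16%, 1.18% and 0.643% of genes. In T cells both measured members, Ccl4 and Ccl5, were called higher at 12 h beside 1.64%, 0 of 1 at 24 h beside 1.08%, and 1 of 1 (Ccl5, higher) at 96 h beside 0.153%. In B cells 0 of 2 were called at 12 h beside 0.557%, 1 of 3 (Ccl6, higher) at 24 h beside 0.731%, and 0 of 2 at 96 h beside 0.242%. The 3 comparisons of a gate share the control library, and the members that passed the minimum are those that were high in at least 1 library. The member that was low everywhere by this minimum was Cxcl10, below 50 CPM in the full monocyte gate at every time.

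**Figure D4:**
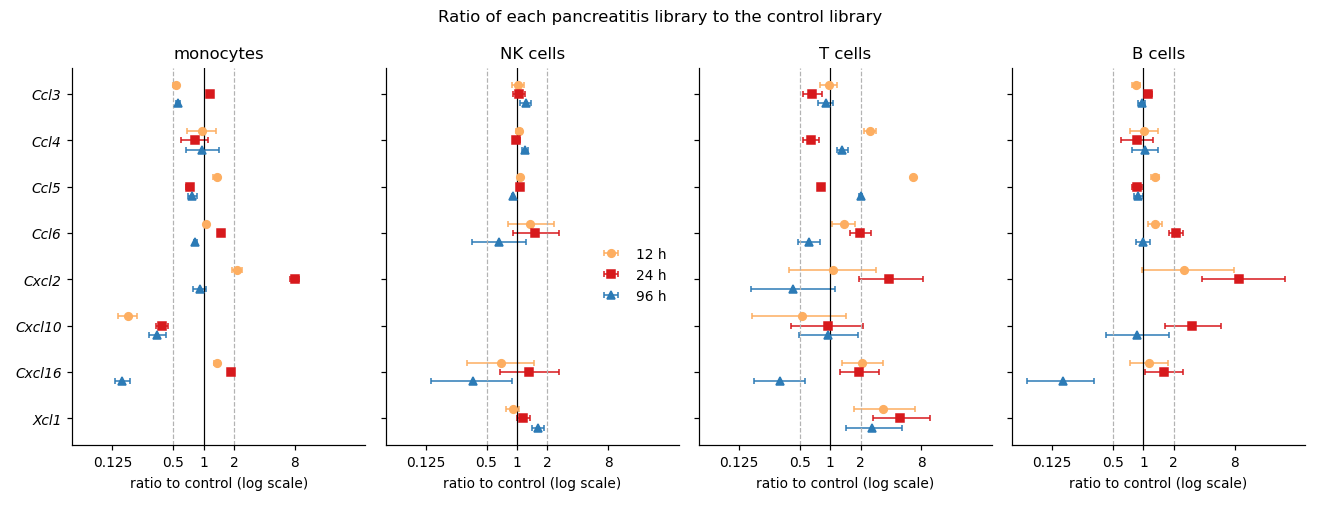
Ratio of each AP library to the control library (log scale) for every ligand with at least 20 UMIs over both libraries and none at 0, by gate, with exact conditional 95% intervals; dashed lines mark 0.5 and 2. Cxcl2 at 24 h in monocytes (7.97) and Ccl5 at 12 h in T cells (6.68) lie above 2, Cxcl16 at 96 h lies below 0.5 in all 4 gates, some low-level values such as Cxcl2 in B cells at 24 h lie above 2 with wide intervals, and the NK values of Ccl3, Ccl4 and Ccl5 lie between 0.907 and 1.23.

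The shares of cells with a UMI put NK cells first for Ccl4, Ccl5 and Xcl1, like the levels (plot of positive shares). For Ccl3 the share in NK cells (29.4%, 28.0%, 25.9% and 33.8%) and in monocytes (30.5%, 20.02%, 30.4% and 22.3%) changed places between libraries, as the levels did at 12 h and 96 h, when NK cells were the higher. After thinning, UMIs per Ccl3-positive cell were 1.77, 1.71, 1.96 and 1.57 in monocytes and 1.29, 1.36, 1.43 and 1.44 in NK cells.

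**Figure D5:**
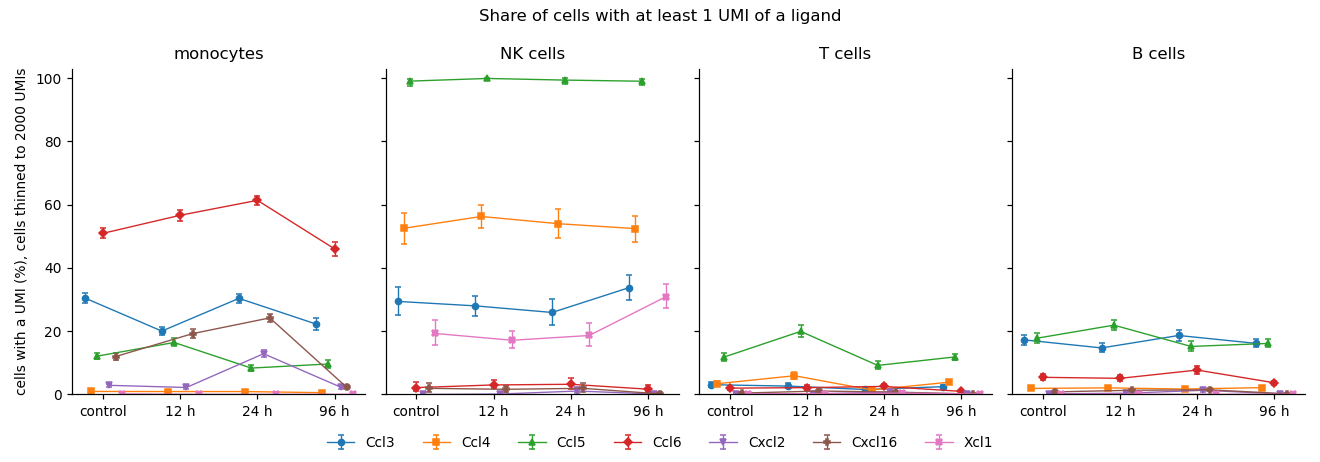
Share of cells with at least 1 UMI of 7 ligands after thinning each cell to 2000 UMIs, by gate and library, with Clopper-Pearson 95% intervals. Ccl5 is above 98% in NK cells throughout, the Xcl1 share of NK cells is highest at 96 h (30.9%), and the Cxcl2 share of monocytes is highest at 24 h (12.9%).

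The receptors of these ligands differed between cell types. Of 7 receptors of the members, all listed in the files, 1 was measured in monocytes at 12 h and called higher: Ccr1, the receptor of Ccl3, Ccl5 and Ccl6, at 12.0, 65.8, 36.3 and 20.2 CPM, 5.47 times control at 12 h (4.72 to 6.36), in a comparison where 4.43% of all measured genes were called. Neutrophils held Ccr1 at 254 CPM at 12 h and 269 at 24 h, and the Cxcl2 receptor Cxcr2 at 87.3 and 92.5 CPM, with ratios near 1. Cxcr2 is among the neutrophil markers that the gates count, so its presence in that gate is partly set by the gating. The Cxcl10 receptor Cxcr3 stood at 12.7, 47.6, 14.5 and 17.8 CPM in T cells, below the minimum for a call.

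Among 15 other chemokine receptors, 11 were listed, and Cxcr4, which holds leukocytes in the bone marrow, reached the highest level of them. It stood at 442, 268, 179.6 and 428 CPM in monocytes and at 476, 229.7, 259.6 and 509 CPM in T cells, lower at 12 h and 24 h than at control and 96 h in both. B cells held more of it, 1006, 830.1, 858 and 965 CPM, between 0.825 and 0.958 times control. NK cells held 222, 264, 187 and 308 CPM, above control at 12 h (1.19, 1.07 to 1.33). It was called lower in T cells at 12 h (0.482, 0.461 to 0.504) and in monocytes at 24 h (0.407). Of the 18 other ligands, 1 was measured, Pf4 in B cells at 12 h, at 73.0 CPM against 7.90 in the control library (9.24 times, 7.17 to 12.1). Pf4 is a platelet gene, and the 5 platelet markers, Pf4 among them, summed to 14.6, 89.6, 49.0 and 18.9 CPM in B cells. The median log2 ratios of all measured genes in these 3 comparisons were 0.10 (T cells, 12 h), -0.09 (monocytes, 24 h) and 0.04 (B cells, 12 h).

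Across the 18 sums of at least 50 cells (5 gates by 4 libraries, without the 2 small neutrophil gates), the 3 genes most like each ligand in log2(CPM + 1) were found by Pearson correlation. This is a description over sums that share libraries and cell types, among 3572 genes. For Ccl5 they were Gzmk (r = 0.996), a granzyme protease, Ccl4 (0.992) and Nkg7 (0.992), and for Ccl4 they were Ccl5 (0.992), Faslg (0.989), the Fas death ligand, and Gzmk (0.989). Xcl1 was nearest to Gzmbl3 (0.9903), Klri2 (0.987) and Kcnk1 (0.986). Klri2 is among the NK markers that the gates count, so its likeness is partly set by the gating. For Cxcl2 they were Cd14 (0.969), the co-receptor for bacterial lipopolysaccharide, Ndufaf7 (0.948) and Il1b (0.942). Ccl6 was nearest to Alox5ap (0.992), an activator of leukotriene synthesis, Tlr2 (0.9895) and Hlx (0.987), and Ccl3 to Pik3ap1 (0.974), Sbds (0.963) and Zeb2 (0.959). The likeness was lower for Cxcl16 (Serpinb6a, 0.935; Pla2g2d, 0.921; Retn, 0.911) and for Cxcl10 (Tm9sf4, 0.883; Ppp1r15a, 0.879; Nr1h3, 0.878).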

How the data were processed

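The deposited matrices hold whole-number counts, the UMIs per gene and cell that the authors made; Cell Ranger, Seurat and mm10 are named in the submitters' processing notes, with no version or role. Each group is 1 library, taken from the sample titles. Here, a cell was kept from 200 detected genes upward if mitochondrial UMIs made up no more than 10%, and doublets called by Scrublet in scanpy 1.11.5 were left out (3.95% to 5.52% of cells), leaving 11407, 10464, 10922 and 12932 cells in time order. Gates count detected markers from lists of 8 per cell type. Cd79a and Cxcr1 of these lists, and the classical marker Ccr2, were not matched by name and were not used. UMIs were summed per gate and library and divided by all UMIs of that sum (CPM).

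Levels carry exact Poisson intervals, shares exact Clopper-Pearson intervals and ratios exact conditional binomial intervals at 95% (scipy 1.17.1), with a floor of 3 counts per library for a gene at 0. Reads of 1 molecule were merged by the UMI, so these intervals cover the sampling of molecules only. Thinning drew 2000 UMIs from each cell and left out shallower cells. In the control, 12 h, 24 h and 96 h libraries 130, 25, 67 and 20 monocytes were left out in this way. With 1 library per group no p-value was computed. The scripts were tested on simulated counts. Median-of-ratios scaling moved the log2 ratios of all genes by up to 0.22 (T cells, 24 h against 12 h).

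The members, gene lists and gates were chosen with earlier results of these data known. The named genes are the 8 members, the list members with the highest levels or the largest or smallest ratio, and the 3 most alike genes per member. Cxcr3, Lyz2, Csf1r, Nkg7 and the NK markers were singled out after their values were seen. Alternatives were no cell filter, a 5% mitochondrial limit, doublets kept, stricter and looser gates, a mean over cells, median-of-ratios scaling, thinning, a 1.5-fold threshold, no minimum CPM, and T cells without NK markers, the last added after the data were seen. Values of 1 listed receptor are not reported here.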

Additional observations from a re-analysis of the deposited data

Results flagged for a closer look

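The Cxcl10 level lay on opposite sides of control in monocytes and B cells at 24 h, where the B-cell side rests on 1 cell. Its level was 0.385 times control in monocytes (0.336 to 0.441, 380 UMIs against 487) and 3.03 times control in B cells (1.64 to 5.91, 40 UMIs against 15). That cell held 38 of the 40 UMIs, and only 3 B cells had a Cxcl10 UMI at 24 h against 14 in the control library, so the number of positive cells ran the other way. The difference between the 2 cell types was not tested, as each time is 1 library, and the B-cell level was 5.45 CPM at its highest.

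Cxcl16 in T cells lay on opposite sides of control at 12 h and 96 h, with a ratio of 2.07 at 12 h (1.32 to 3.31, 52 UMIs against 33) and 0.316 at 96 h (0.176 to 0.559, 22 UMIs against 33). This difference was not tested either. With at most 5% mitochondrial UMIs the ratios were 1.24 (0.166 to 54.9) and 0.148 (0.00772 to 8.74), both with intervals that hold 1. The T-cell levels were 2.17, 4.49, 4.22 and 0.685 CPM in the order of the libraries, beside 72.0, 97.1, 133.0 and 11.3 CPM in monocytes.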

How the results depend on the processing

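Loose gates kept the direction of all 140 results, strict gates that of 133 of 138, no cell filter 134 of 140, median-of-ratios scaling and a mean over cells 133 of 140 each, doublets kept 130 of 140, thinning 125 of 138 and T cells without NK markers 33 of 39; the cause of the changes was not tested. The count of members called in monocytes at 12 h was 1 as reported. It was 0 with doublets kept, after thinning and as a mean over cells, and 2 at 1.5-fold or with no minimum CPM. With doublets kept the Cxcl2 ratio was still 2.10 (1.88 to 2.35). With at most 5% mitochondrial UMIs Cxcl2 was no longer called at 12 h (1.55), and Ccl3 was called lower (0.229). The monocyte count of 1 was 2 at 24 h with median-of-ratios scaling, at 1.5-fold and with no minimum CPM, and 2 at 96 h with at most 5% mitochondrial UMIs, at 1.5-fold and with no minimum CPM. In NK cells at 96 h, 0 became 1 at 1.5-fold and with no minimum CPM. In T cells at 12 h, 2 became 4 with no minimum CPM and 0 without NK-marker cells. At 24 h, 0 became 1 with at most 5% mitochondrial UMIs and 2 with no minimum CPM. At 96 h, 1 became 2 with at most 5% mitochondrial UMIs, 3 with no minimum CPM, and 0 with doublets kept, after thinning, as a mean over cells and without NK-marker cells, where the Ccl5 ratio in T cells of 2.02 turned to 0.751. In B cells at 24 h, 1 became 0 with no cell filter, with doublets kept and after thinning, and 3 with no minimum CPM, and at 96 h 0 became 1 with no minimum CPM. The 5% limit left 63 of 76 directions as they were, with few control cells. No paired analysis was possible because each group is 1 library. Depth limits Cxcl10, Cxcl16 and Xcl1 outside their main gates, where a level rests on few UMIs.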
